A study of Bombyx mori with 6 samples.

Results

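Boule and TSSK are a pair of genes named for their part in making sperm. Both were taken by gene symbol from the read counts of testes of the silkworm Bombyx mori, 2 of the 15884 genes in the deposited table. Boule is gene 100134923 and TSSK is gene 100852389. One group is GMS, a genetic male sterile line whose genotype is given as mutant, and the other is its wild type, strain 898WB, written WT below. There were 3 RNA sequencing libraries in each group, all from larvae on day 5 of the fifth instar. The labels name neither the mutated gene nor the number of animals behind a library, so each p-value speaks of the spread among these libraries, which may be technical.

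Sperm form from stem cells that divide by mitosis, pass through meiosis as spermatocytes and then reshape as spermatids. Boule encodes an RNA-binding protein of the DAZ family with an RNA recognition motif. In Drosophila males it is needed for entry into meiosis, where it promotes translation of the Cdc25 phosphatase Twine. TSSK encodes a testis-specific serine kinase, a family that in mice acts after meiosis in spermatids and is needed for male fertility. At this larval stage a silkworm testis holds germ cells at successive stages of this course.

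The GMS libraries held 19627477 to 27941504 counted reads and the WT libraries 21690617 to 28358501. WT replicate 3 stood apart from the other libraries. On the first principal component, with 82.3% of the variance, it lay at 19.6, against 33.0 and 35.2 for the other WT libraries. The GMS libraries lay between -29.7 and -28.6 there. On the second, with 14.2%, WT replicate 3 lay at -25.8, where the other 5 libraries lay between -1.44 and 12.7. The tests below were also run without WT replicate 3. Genes of germ cells were looked up beside the labelled tissue. The beta-tubulin gene Tub4, the vasa-like helicase gene Vlg, the PIWI gene Aubergine and the meiotic recombinase gene Dmc1 had reads in all 6 libraries. Since 12029 of the 15884 genes passed a filter on low counts, having reads is a weak check of the tissue.

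TSSK was an abundant transcript of the testis in both strains. It stood at 81.5% of its WT level in GMS on the TMM-scaled CPM scale explained below. That size depends on the scaling, with a log2 change of -0.29 for TMM and -0.19 for library totals only. Boule was at the limit of detection in both strains. A difference between GMS and WT could be measured for TSSK only.

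**Figure D1:**
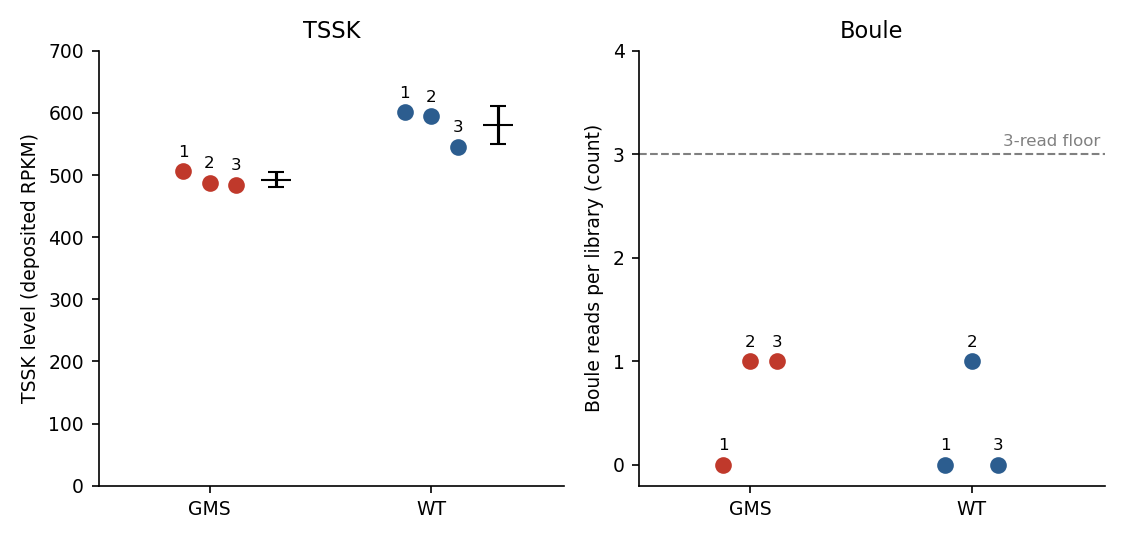
TSSK and Boule in each library. The left panel shows TSSK as deposited RPKM and the right panel Boule as reads per library; each point is 1 library with its replicate number, and the bars beside the TSSK points are mean ± SD (n = 3). The GMS libraries lie between 484 and 506 RPKM for TSSK, below all 3 WT libraries, and no library has more than 1 read of Boule.

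For Boule, GMS replicates 1, 2 and 3 had 0, 1 and 1 reads, and WT replicates 1, 2 and 3 had 0, 1 and 0. In all, this was 2 of 71098393 counted reads in GMS and 1 of 75542055 in WT. As counts scaled to library size (CPM), this was 0.0281 in GMS (95% exact binomial interval 0.00341 to 0.102) and 0.0132 in WT (interval 0.000335 to 0.0738). These intervals cover counting error only. They overlap, and both groups lie under the floor of 3 reads per library, so no fold change is given. Boule did not pass the filter on low counts and was not tested. Whether it differed between GMS and WT was not detectable at this depth.

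Depth and gene length set how low that level is. The counts and the deposited RPKM values, which are scaled to gene length and library depth, together give the length over which the authors counted each gene. It was 962 bases for Boule. Over that length a floor of 3 reads equals 0.0454 to 0.0646 RPKM in the GMS libraries and 0.0466 to 0.0579 RPKM in the WT libraries. The 3 libraries with a Boule read stood at 0.0151 to 0.0177 RPKM, and the other 3 were listed at 0. Boule was 1 of 1524 genes, 9.59% of the table, with 3 or fewer reads over the 6 libraries together.

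Genes of the meiosis and germ cell lists lay above that floor, by differing amounts. A list of 8 genes of meiosis and meiotic entry, 5 germ cell RNA regulators and 2 tubulin genes of the spermatid list gave 15 genes to set beside Boule. In every library each of them lay above the Boule floor. All 15 had passed the filter on low counts, as did 12029 of the 15884 genes, so this does not set germ cell genes apart. The share of all genes above that floor in every library was not counted. The lowest was nos-M, a nanos gene, at 0.277 RPKM in its lowest library. Cdc25, the silkworm gene of the phosphatase family that fly Boule acts on, averaged 2.403 RPKM in GMS and 1.997 RPKM in WT. Dmc1 averaged 6.28 RPKM in GMS and 3.18 RPKM in WT.

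The RefSeq assembly ASM3026992v2 was used only for names, listed transcripts, spans and gene order. On it Boule lies on chromosome 27 and has 2 listed transcripts. It spans 42397 bases there, against the 962 bases counted. The annotation behind the counts is unknown here, and so which exons those bases cover is not known. The neighbours given are tested genes, which passed the filter on low counts, so that they had reads was fixed by this choice. LOC100862791 averaged 4308 ± 63.5 CPM in GMS and 4778 ± 343 CPM in WT (SD, n = 3), and LOC101739629 averaged 11.03 ± 0.759 CPM in GMS and 9.96 ± 1.14 CPM in WT. Here and below CPM values are after TMM scaling, which corrects for differences in library make-up. LOC100862791 was not called over all 6 libraries (log2 change -0.15, edgeR adjusted p = 0.0730) but was called without WT replicate 3 (log2 change -0.25, edgeR adjusted p = 1.05e-06). The next tested genes out, LOC101746901 and LOC101740177, were also not called, at log2 changes of -0.34 and 0.08.

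TSSK stood at 506, 487 and 484 RPKM in GMS replicates 1, 2 and 3, against 601, 595 and 545 RPKM in WT replicates 1, 2 and 3. All 3 GMS libraries lay below all 3 WT libraries, and the narrowest gap was to WT replicate 3. The means were 492 ± 11.6 RPKM in GMS and 580.4 ± 30.7 RPKM in WT (SD, n = 3). On the CPM scale the libraries gave 1679, 1643 and 1603 in GMS and 2064, 2042 and 1935 in WT, with means of 1642 ± 38.1 in GMS and 2014 ± 69.0 in WT. The GMS mean was thus 81.5% of the WT mean.

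In the fit over all 12029 genes that passed the filter, TSSK fell by 0.29 on the log2 scale in GMS relative to WT (standard error 0.04; quasi-likelihood test of edgeR with Benjamini-Hochberg adjustment, adjusted p = 0.00153). The difference exceeded the spread between libraries. It was called under all 16 other settings tried, with log2 changes from -0.37 to -0.19 and adjusted p-values from 1.64e-08 to 0.0169. The largest fall came without WT replicate 3 and the smallest when only library totals were used for scaling. In bulk tissue, fewer cells that express TSSK and less TSSK RNA per cell cannot be told apart.

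**Figure D2:**
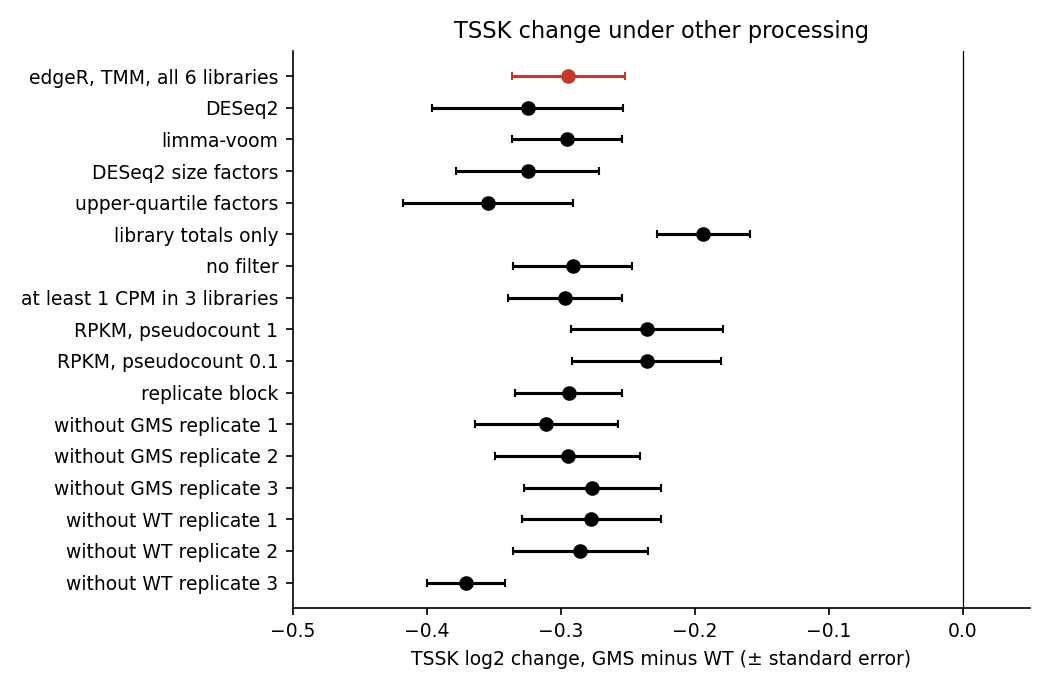
Log2 change of TSSK, GMS minus WT, with its standard error, in the fit reported (red, top) and under each other setting (black). All points lie between -0.37 and -0.19, left of the line at no change.

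A fall of this kind was common. Of the genes tested, 36.2% were called in either direction and 18.6% were called lower in GMS. The groups did not overlap for 51.0% of genes, and for 24.8% every GMS library was below every WT library, as for TSSK. Of the 2242 genes called lower, 1769 fell by more than TSSK, and the median log2 change of all 2242 was -0.56. TSSK ranked 1346th by adjusted p among the genes tested.

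TSSK belongs to the most abundant transcripts, and among these lower calls outnumbered higher ones. It took 0.166% to 0.174% of all counted reads in the GMS libraries and 0.189% to 0.198% in the WT libraries. By RPKM it ranked 34th in GMS and 34th in WT. Among the 1839 genes with a symbol other than a LOC number it was 10th in GMS and 9th in WT. The median log2 change over all tested genes was 0.05, while over the 310 genes that averaged 500 CPM or more it was -0.21. Of these 310 genes 57.1% were called lower and 2.90% higher, and 91 of those called lower fell by more than TSSK. Relative to the median of all tested genes the TSSK change was -0.34, and relative to the median of the abundant genes it was -0.08. The share of abundant genes called lower was 42.6% with library totals only, 39.0% with RPKM values and a pseudocount of 1, and 79.0% without WT replicate 3.

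**Figure D3:**
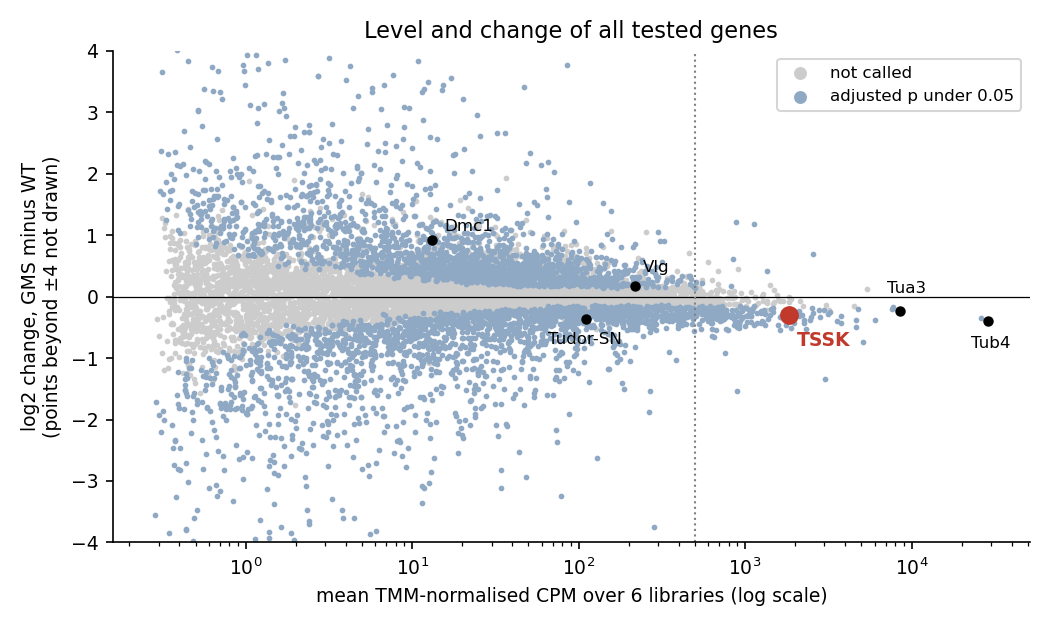
Mean level over 6 libraries (CPM, log axis) against log2 change, GMS minus WT, for every tested gene between -4 and 4. Blue points were called, grey points were not, the dotted line marks 500 CPM and TSSK is in red. Right of that line most called genes lie below 0, where 57.1% of the genes were called lower.

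The tubulin genes of the spermatid list, whose products build microtubules of spindles and sperm tails, were lower in GMS, as TSSK was. Tub4 averaged 24830 ± 359 CPM in GMS and 32823 ± 2535 CPM in WT (SD, n = 3). The alpha-tubulin gene Tua3 averaged 7785 ± 116 CPM in GMS and 9191 ± 623 CPM in WT. The falls were 0.40 for Tub4 and 0.24 for Tua3 on the log2 scale (edgeR adjusted p = 0.00156 and 0.0115), and without WT replicate 3 the log2 changes were -0.51 and -0.34. They were the only genes of the spermatid and sperm structure list with a match, 2 of 2 lower, beside 18.6% of all tested genes and 57.1% of those at 500 CPM or more, to which both belong. The Tua3 call was lost without GMS replicate 1 (edgeR adjusted p = 0.0576), without WT replicate 1 (edgeR adjusted p = 0.0516) and with RPKM values (limma adjusted p = 0.0970 with a pseudocount of 1 and 0.0886 with 0.1).

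In the list for meiosis and meiotic entry, Dmc1 was higher in GMS and the calls of Aurora-B and Cdc2 differed between settings. The list was matched by symbol, and whether the RNA of its genes came from meiotic cells was not tested. In the edgeR fit with TMM factors, of 8 tested genes 1 was higher, 0 were lower and 7 were not called, against 17.6% of all tested genes called higher and 18.6% lower. The median log2 change was 0.14, beside 0.05 for all tested genes. Dmc1 rose, with 17.2 ± 0.993 CPM in GMS and 9.04 ± 0.726 CPM in WT (SD, n = 3; log2 change 0.93, edgeR adjusted p = 0.000341). Cdc25 had a log2 change of 0.21 (edgeR adjusted p = 0.108) and Cdc2, the kinase that Cdc25 activates, one of 0.34 (edgeR adjusted p = 0.0742). Over the same 6 libraries Cdc2 was called higher with DESeq2 (adjusted p = 0.0446), limma-voom (adjusted p = 0.0460), library totals only (edgeR adjusted p = 0.0371) and RPKM values (limma adjusted p = 0.0307 with a pseudocount of 1 and 0.0309 with 0.1). Library totals only also gave calls of Cdc25 and Mre11 as higher (edgeR adjusted p = 0.0247 and 0.0428). The double-strand break repair gene Mre11 stood at 0.09. Among the partners of Cdc2, the cyclin genes Cycb and Cyca stood at 0.20 and 0.03, and Cyca changed sign with upper-quartile factors. The mitotic kinase genes Aurora-B and LOC101740671, listed with the synonym PLK1, stood at -0.20 and -0.08. Aurora-B was not called (edgeR adjusted p = 0.0534) but was called lower over the same libraries with DESeq2 (adjusted p = 0.0444), limma-voom (adjusted p = 0.0416), DESeq2 size factors (edgeR adjusted p = 0.0388), upper-quartile factors (edgeR adjusted p = 0.0288) and a filter of 1 CPM in 3 libraries (edgeR adjusted p = 0.0496). Without WT replicate 3, Cdc2, Cycb and Dmc1 were called higher and Aurora-B and LOC101740671 lower, where 29.0% of all genes were called higher and 29.0% lower.

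**Figure D4:**
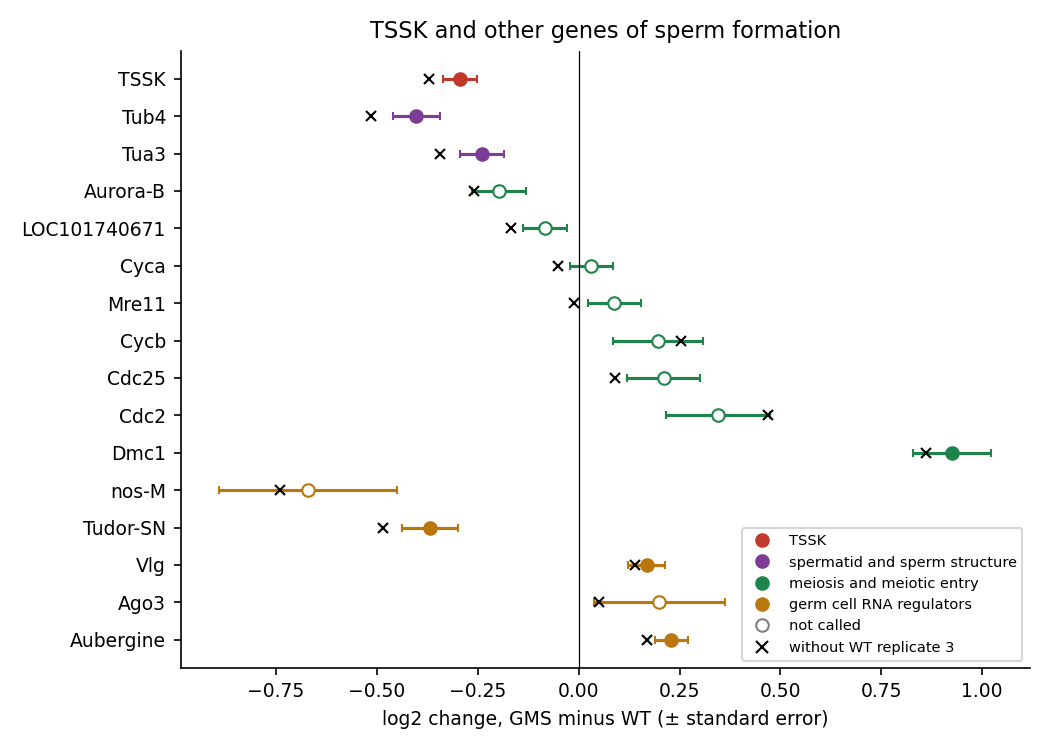
Log2 change, GMS minus WT, with its standard error for TSSK and the 15 genes of the spermatid, meiosis and germ cell RNA lists. Circles are over all 6 libraries, filled where called, and crosses are without WT replicate 3. TSSK at -0.29 lies beside Tub4 at -0.40 and Tua3 at -0.24, while Dmc1 lies highest at 0.93.

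The genes listed as RNA regulators of germ cells, the class that Boule belongs to, went both ways. Of 5 tested genes 2 were higher, 1 was lower and 2 were not called, with a median of 0.17, beside 17.6% of all tested genes higher, 18.6% lower and a median of 0.05. Aubergine, a PIWI protein that silences transposons with piRNAs, averaged 284 ± 3.97 CPM in GMS and 242 ± 3.52 CPM in WT (SD, n = 3; log2 change 0.23, edgeR adjusted p = 0.00421). Vlg rose by 0.17 (edgeR adjusted p = 0.0264). That call was lost with DESeq2 (adjusted p = 0.0933), with its size factors (edgeR adjusted p = 0.0555), with upper-quartile factors (edgeR adjusted p = 0.146) and without any of 5 libraries, all but WT replicate 3 (edgeR adjusted p = 0.0623 to 0.108). Tudor-SN, a nuclease with a tudor domain, fell by 0.37 (edgeR adjusted p = 0.00549). Ago3, the partner of Aubergine in piRNA production, stood at 0.20 and nos-M at -0.67, and neither was called. With upper-quartile factors (edgeR adjusted p = 0.0458) and with RPKM values (limma adjusted p = 0.00854 and 0.0114 with pseudocounts of 1 and 0.1) nos-M was called lower. Without WT replicate 3 the log2 changes of Aubergine, Vlg and Tudor-SN were 0.17, 0.14 and -0.49.

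A ratio taken within a library does not depend on how libraries are scaled. Since Boule had too few reads to serve, TSSK was set against 5 other germ cell genes, chosen after the data were seen. The ratio of TSSK to Tub4, on the RPKM scale, was 0.0696, 0.0679 and 0.0681 in GMS replicates 1, 2 and 3, against 0.0622, 0.0620 and 0.0671 in WT replicates 1, 2 and 3. The GMS values were all higher, by little over WT replicate 3, and the mean log2 difference was 0.11. Relative to Tua3 the ratio averaged 0.331 ± 0.0119 in GMS and 0.344 ± 0.0124 in WT (SD, n = 3), and the groups overlapped. Relative to Vlg it averaged 14.3 ± 0.742 in GMS and 19.8 ± 1.09 in WT, and relative to Aubergine 14.5 ± 0.526 in GMS and 20.8 ± 0.468 in WT. The mean log2 differences were -0.46 and -0.52. The widest gap was to Dmc1, with ratios of 85.9, 75.7 and 74.2 in GMS and 199, 170 and 181 in WT and a mean log2 difference of -1.22. For Vlg, Aubergine and Dmc1 all GMS ratios lay below all WT ratios. These 3 ratios also hold the rises of those genes, with edgeR log2 changes of 0.17, 0.23 and 0.93, beside -0.29 for TSSK. The exact two-sided permutation p was 0.1 for each ratio but that to Tua3, where it was 0.3. With 3 libraries against 3, 0.1 is the smallest p possible, and adjusted over the 5 ratios the values were 0.125 and 0.3. Without WT replicate 3 the mean log2 differences were 0.14 for Tub4, -0.03 for Tua3, -0.51 for Vlg, -0.54 for Aubergine and -1.23 for Dmc1.

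**Figure D5:**
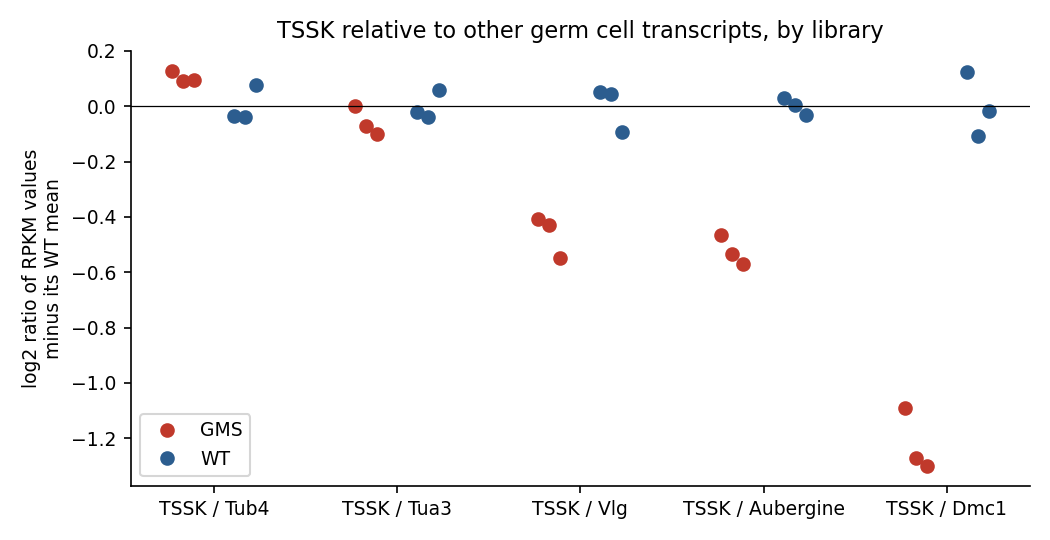
Ratio of TSSK to 5 other germ cell genes in each library, as log2 ratio of RPKM values minus the mean of the WT libraries (GMS red, left; WT blue, right). The GMS points are close to WT for Tub4 and Tua3, with mean differences of 0.11 and -0.06, and lowest for Dmc1, at -1.22.

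Set against Boule per base counted, TSSK had 41501 times as many reads in GMS (95% interval 11489 to 342694) and 101309 times as many in WT (interval 18183 to 4001513). The intervals are wide because they rest on 2 Boule reads and 1 Boule read, and they overlap.

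Of the families that TSSK and Boule belong to, 13 protein kinase genes and 10 genes of RNA-binding proteins with recognition motifs were tested. Of the 13 protein kinase genes 2 were higher, 1 was lower and 10 were not called (median log2 change 0.12), beside 17.6% of all tested genes higher, 18.6% lower and a median of 0.05. Lkb1, a kinase that activates AMPK, fell by 0.22 and the checkpoint kinase gene Chk2 rose by 0.35 (edgeR adjusted p = 0.0155 and 0.0278). LOC100862655, listed with the synonym SRC, rose by 0.24 (edgeR adjusted p = 0.0213). The call of each of these 3 kinases was lost without GMS replicate 1 (edgeR adjusted p = 0.0751 for Lkb1, 0.104 for Chk2 and 0.0503 for LOC100862655), and other libraries left out ended it too. Of the 10 genes of RNA-binding proteins, 0 were higher, 1 was lower and 9 were not called (median 0.05). Sqd, the splicing and mRNA localisation factor squid in flies, was the one that fell, by 0.26 (edgeR adjusted p = 0.00839). The call was lost with RPKM values (limma adjusted p = 0.0530 and 0.0536 with the same pseudocounts). Of 6 genes of male sex determination 1 was called, Psi, which acts on male splicing of doublesex in the silkworm. It rose by 0.16 (edgeR adjusted p = 0.0429), and the call was lost with DESeq2 size factors (edgeR adjusted p = 0.116) and without any of 5 libraries, all but WT replicate 2 (edgeR adjusted p = 0.0925 to 0.152). Over all 42 genes of these lists 6 were higher and 5 lower. The first count was 3 with upper-quartile factors, 14 with library totals only and 12 without WT replicate 3.

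The named genes whose level followed TSSK most closely over the 6 libraries were Uccr, Ivd, L130, STIP and Nep-L. Likeness was the root mean square distance between log2 CPM values, each centred on its own mean. Over 764 candidates the median distance was 0.21, and these 5 genes lay at 0.02 to 0.03. Uccr averaged 124 ± 3.70 CPM in GMS and 154 ± 5.90 CPM in WT (SD, n = 3; log2 change -0.31). Ivd, L130, STIP and Nep-L had log2 changes of -0.29, -0.23, -0.25 and -0.32. Since they were chosen for a pattern like that of TSSK in these libraries, their direction is fixed by that choice and no test is given.

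TSSK lies on chromosome 25 of the RefSeq assembly, where its span of 1397 bases equals the length over which its reads were counted. The 4 tested genes nearest to it differed in direction. On one side the nearest, LOC101745463, had a log2 change of 0.10 and was not called, and the next, LOC101745754, fell by 0.28 (edgeR adjusted p = 0.00830). On the other side both rose. LOC101745222 stood at 7.39, 7.53 and 7.07 CPM in GMS and 2.20, 3.68 and 3.44 CPM in WT (log2 change 1.24, edgeR adjusted p = 0.00193). LOC105842057 averaged 4.01 ± 0.430 CPM in GMS and 1.37 ± 0.0569 CPM in WT (SD, n = 3; log2 change 1.55, edgeR adjusted p = 0.000205). Genes without a test were passed over in this order.

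Markers of other tissues that a dissected testis can carry also moved. Of 9 fat body and haemolymph genes 0 were higher, 7 were lower and 2 were not called, with a median log2 change of -1.07. Of all tested genes 17.6% were higher and 18.6% lower, with a median of 0.05, and the counts of the haemocyte and muscle markers stand beside the same shares. The 9 fat body and haemolymph genes summed to 326 to 345 CPM in the GMS libraries and 515 to 649 CPM in the WT libraries. Lp-c23, LP3, LP4 and Lp-c6, lipoproteins of the haemolymph, had log2 changes of -1.19, -1.07, -1.38 and -1.12, and of -1.34, -1.23, -1.57 and -1.31 without WT replicate 3. Of 4 tested haemocyte genes 2 were higher, NimB by 1.02 and PPO2 by 0.76, and 2 were lower, PPAE and Scr-c, with log2 changes of -0.71 and -1.26. The 5 matched haemocyte genes summed to 121 to 135 CPM in GMS and 89.0 to 109 CPM in WT. The 5 matched muscle genes summed to 18.2 to 19.5 CPM in GMS and 13.3 to 16.98 CPM in WT. Of the 4 muscle genes tested, TpnI and Mf were higher, at 0.47 and 0.56, and A1 and A2 lower, at -1.33 and -1.60. A1 rested on 74 reads in GMS and 183 in WT, and A2 on 14 and 43. In GMS replicate 2, A2 lay under the floor of 3 reads, at 0.0823 CPM. The calls of TpnI, Mf and A2 were lost without GMS replicate 1 and without GMS replicate 2. Those of Mf and A2 were also lost with DESeq2 (adjusted p = 0.162 and 0.0615). No marker was at 0 reads in either group, and the lowest, Fln, had 3 reads in GMS and 2 in WT. The part of these cells in the TSSK difference was not tested.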

How the data were processed

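Raw read counts and RPKM values for each gene and library were deposited by the authors, per the file headers. HISAT2 2.1.0 and featureCounts 1.6.2 were used, per the submitters' processing notes. The name of the genome build is not given in the sources used here. Per the labels' protocols, the library kit was TruSeq RNA, which does not mark strand, so overlapping antisense reads cannot be told apart, and reads may be divided between close copies of a gene. Dividing counts by RPKM gave gene lengths that were whole within 0.01 bases for 100% of genes with reads. It also gave the totals behind the RPKM scaling, 48248888 to 68701498, and the totals of the count table equal 40.1% to 42.5% of these. Whether both count single reads or read pairs is not known here, so this need not be the share of reads counted.

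Symbols came from the RefSeq gene table of assembly ASM3026992v2, whose coordinates were used only for chromosome, span and gene order. The test was glmQLFTest in edgeR 4.0.16 (R 4.3.3) with TMM factors, filterByExpr (12029 genes kept, 3855 removed) and group as the only term. For edgeR fits the standard error was derived from the test, as the absolute log2 change divided by the square root of F. A gene was called at a Benjamini-Hochberg adjusted p under 0.05 over all genes tested. The script was also run on simulated data, where a small part of the genes changed, each by more than TSSK. That run does not cover a change as small as that of TSSK or shifts in many genes at once. Alternatives used DESeq2 1.42.0, limma-voom, limma 3.58.1 on log2 RPKM with pseudocounts of 1 and 0.1, other scaling factors, other filters, and each library left out. Floors were 3 reads per library.

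Members and gene lists were chosen with earlier results of these data known. Lists match symbols or synonyms. A list by product name had no match, since the table holds no product names, and 3 symbols that name other genes (NOS1, Ser2 and Ash2) were dropped. A gene of the meiosis list is not reported here. Named are both members, up to 4 called genes of smallest p in each list, the 5 named genes with at least 5 CPM nearest to TSSK and the 2 tested neighbours on each side. The other genes of the meiosis and germ cell RNA lists, and Fln, lie outside that rule. Protein nearness was not used.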

Additional observations from a re-analysis of the deposited data

How the results depend on the processing

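The fall of TSSK kept its direction and its call in all 16 settings. With the replicate numbers of the titles as a block (replicate block) its log2 change was -0.29 (edgeR adjusted p = 0.00715). Libraries of the same number did not deviate together (correlations of 0.0772, -0.359 and -0.379 over genes), so the numbers were not read as pairs. Between libraries of different number the correlations ran from -0.292 to 0.395. The highest were 0.395 for GMS replicate 3 with WT replicate 2 and 0.370 for GMS replicate 2 with WT replicate 3. Whether such libraries share a batch was not tested. The block gave 1450 genes higher and 1701 lower, against 2115 and 2242 without it, and 2 genes of the lists higher, against 6. The count of genes higher was 3264 with library totals only, with 1695 lower, and RPKM values with a pseudocount of 1 gave 2805 higher and 1794 lower. Leaving out 1 library gave 1360 to 3549 genes higher and 1634 to 3555 lower. It gave 2 to 12 list genes higher and 4 to 7 lower, the upper ends without WT replicate 3. Of the list genes, 3 were higher with upper-quartile factors, 14 with library totals only and 10 with RPKM values at either pseudocount, and 3 were lower with RPKM values and a pseudocount of 0.1. Among genes not called, Cyca turned to -0.0287 with upper-quartile factors and lay between -0.0513 and 0.0765 with 1 library left out, Mre11 likewise between -0.0105 and 0.122, LOC101745463 between -0.00866 and 0.138 and LOC101740177 between -0.109 and 0.252. LOC101740671 turned to 0.0183 with library totals only. The cause of these changes was not tested. Over the 45 other named genes, 610 of 716 values kept direction and call, 79 lost the call, 21 gained it and 6 changed sign. The 5 ratios of TSSK kept their sign in all settings tried. The planned ratio of TSSK to Boule in each library was not run, since Boule had 0 reads in 3 libraries. Boule lay under the floor of 3 reads in every library.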
